A study of Mus musculus with 36 samples.

Results

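Open chromatin around 4 linked genes of blood formation was described across the early hematopoietic hierarchy of young and aged mice. The genes were Gata1, Gata2 and Gata3, which encode zinc finger transcription factors, and Zfpm1, which encodes the GATA1 cofactor FOG1. Overlapping peaks (1 bp or more) of the 36 ATAC-seq libraries were joined, which gave 105005 regions, called the catalogue here, and a region was assigned to a gene when its centre lay nearest to a transcription start site (TSS) of that gene among all protein-coding TSSs. This gave 77 regions, 2 for Gata1, 11 for Gata2, 39 for Gata3 and 25 for Zfpm1. A region is named below by the distance of its centre from the most upstream TSS of its gene (the element 76.8 kb upstream of Gata2 by its summit), and assignment by distance does not show which gene a region acts on.

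The libraries came from 8 fractions of bone marrow sorted by surface markers from C57BL/6 mice aged 10 weeks (young) or 20 months (aged), and each library was made from 20000 cells. No agent or mutant allele is given for either age. Hematopoietic stem cells (HSCs) stand at the top of the hierarchy, followed by 4 fractions of multipotent progenitors (MPP1 to MPP4). The committed fractions were the common lymphoid (CLPs), the granulocyte and macrophage (GMPs) and the megakaryocyte and erythrocyte progenitors (MEPs). HSCs had 4 libraries per age and the other fractions had 2 per age. The marrow of each age was pooled ahead of the sort. Animals can therefore be shared between libraries, in which case p-values measure the spread between libraries alone.

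GATA factors bind short sites built around the letters GATA. GATA2 acts in stem and early progenitor cells, GATA1 takes its place at many shared sites as cells become erythroid, megakaryocytic, mast or eosinophil cells, and this exchange is known as the GATA switch. FOG1 does not bind the sites itself but is needed by GATA1 for much of its work in erythroid and megakaryocytic cells. GATA3 is best known for T cell development and is also expressed in HSCs. Elements at set distances from the Gata2 TSS, at 77 and 3.9 kb upstream and 9.5 kb downstream among others, have been described as GATA-bound enhancers. Of these, the one 9.5 kb downstream is needed for HSC formation and the one 77 kb upstream for Gata2 expression in myeloid progenitors. The Gata1 gene has known elements 25 and 3.5 kb upstream and 3.5 kb downstream.

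Each library was deposited as a list of peaks, with a fold enrichment of reads over the local background for each peak. The readouts were therefore whether a region was called, that is whether it overlapped a peak of that library, and its highest fold enrichment. In a sorted fraction, fewer cells with an open region and less open chromatin per cell cannot be told apart. Libraries held 9581 to 63288 peaks, and the fractions differed in this. GMPs called 54.8% ± 4.39 of the catalogue (SD, n = 4), MEPs 9.35% ± 0.564 (SD, n = 4), and the mean of each other fraction lay between 29% and 33.2%. Known marker genes were checked at the most-called region within 1 kb of a TSS. Of 5 GMP markers (Mpo, Elane, Cebpe, Prtn3 and Ctsg), 4 had such a region, and all 4 were called in all 4 GMP libraries. Of the MEP markers reported here, Klf1 and Slc4a1 had none, Epor was called in 35 of 36 libraries and Car1 in 2 MEP libraries only. Of 5 CLP markers, Il7r was called in all MPP4, GMP and CLP libraries, Ebf1 in 29 libraries, and Dntt, Rag1 and Cd79a had no such region. Of 5 HSC markers, Hlf and Meis1 were called in all 8 HSC libraries but also in all GMP libraries. Procr was called in 4 of 8 HSC and 3 of 4 GMP libraries, Hoxa9 in 3 of 8 and 4 of 4, and Mecom in 0 of 8 and 3 of 4. Apart from the GMP markers and Car1, the calls given here did not single out the labelled fraction.

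The sequences on which the account below turns are shown as 201 bases centred on the median peak summit, read from the RefSeq copy of the mouse genome (GRCm38, the assembly of mm10) on the strand of the gene. Capitals mark the GATA letters on either strand, which were counted as AGATAA or, with the last letter changed, AGATAG, and with the first letter changed, as TGATAA or, with both letters changed, TGATAG. They are the 3 known Gata2 elements found among the regions, the Gata2 region that stood out in GMPs, the Gata1 region upstream of its TSS, the Zfpm1 intronic region with the smallest p across fractions, and the Gata3 region that was open from MPP2 to MPP4, GMPs and CLPs.
Gata2, 76.8 kb upstream (chr6:88117020-88117220, plus strand): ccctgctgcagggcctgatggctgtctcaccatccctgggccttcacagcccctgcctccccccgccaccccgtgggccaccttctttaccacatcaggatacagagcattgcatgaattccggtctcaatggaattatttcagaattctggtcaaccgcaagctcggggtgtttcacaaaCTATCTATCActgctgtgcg
Gata2, 27.7 kb upstream (chr6:88166147-88166347, plus strand): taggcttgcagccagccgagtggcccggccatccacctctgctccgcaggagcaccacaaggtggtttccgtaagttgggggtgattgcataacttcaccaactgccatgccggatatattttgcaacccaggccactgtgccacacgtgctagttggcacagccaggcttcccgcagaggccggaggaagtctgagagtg
Gata2, 4.1 kb upstream (chr6:88189690-88189890, plus strand): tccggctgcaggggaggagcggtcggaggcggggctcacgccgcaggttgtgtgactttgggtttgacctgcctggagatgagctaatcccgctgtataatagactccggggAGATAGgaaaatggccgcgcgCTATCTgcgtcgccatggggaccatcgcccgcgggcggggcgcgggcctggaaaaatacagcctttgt
Gata2, 9.4 kb downstream (chr6:88203083-88203283, plus strand): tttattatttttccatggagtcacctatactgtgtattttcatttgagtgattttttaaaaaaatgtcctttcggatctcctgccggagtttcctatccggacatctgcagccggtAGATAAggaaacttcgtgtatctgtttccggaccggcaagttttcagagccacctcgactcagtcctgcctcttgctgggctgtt
Gata1, 3.6 kb upstream (chrX:7971381-7971581, minus strand): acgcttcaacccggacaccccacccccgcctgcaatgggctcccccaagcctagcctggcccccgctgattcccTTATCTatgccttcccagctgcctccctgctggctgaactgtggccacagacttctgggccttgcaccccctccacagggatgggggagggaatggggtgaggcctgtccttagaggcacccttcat
Zfpm1, 27.4 kb downstream (chr8:122309381-122309581, plus strand): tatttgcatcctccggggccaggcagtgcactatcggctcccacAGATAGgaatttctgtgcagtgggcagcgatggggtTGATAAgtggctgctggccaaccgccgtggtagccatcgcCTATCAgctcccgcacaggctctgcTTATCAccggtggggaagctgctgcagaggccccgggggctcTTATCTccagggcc
Gata3, 76.9 kb downstream (chr2:9801592-9801792, minus strand): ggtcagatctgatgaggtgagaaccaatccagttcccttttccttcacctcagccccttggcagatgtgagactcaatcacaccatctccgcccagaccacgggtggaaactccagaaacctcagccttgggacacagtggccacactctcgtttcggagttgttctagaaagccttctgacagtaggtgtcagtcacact

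The window 9.4 kb downstream of the Gata2 TSS held catctgcagccggtagata, an E-box (CANNTG) followed after 6 to 10 bases by GATA, which is the arrangement bound by complexes of TAL1 and GATA factors. The same arrangement was found in 5 of the 77 windows, on either strand, and in 2.6% of the 104815 catalogue windows with complete sequence. The other windows with it were 27.7 kb upstream of Gata2, 3.6 kb upstream of Gata1, and 9.4 and 1187.1 kb downstream of Gata3. The window 27.4 kb downstream of Zfpm1 held 5 GATA matches, more than any other of the 77. GATA letters were found in 25 of the 77 windows (32.5%) and in 26.2% of catalogue windows. ETS letters (AGGAAG or CGGAAG) were found in 46.8% and 50.1%, and RUNX letters (TGTGGT or TGCGGT) in 26% and 29.4%, of the 77 and of the catalogue respectively. A match describes the letters in these windows only.

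**Figure D1:**
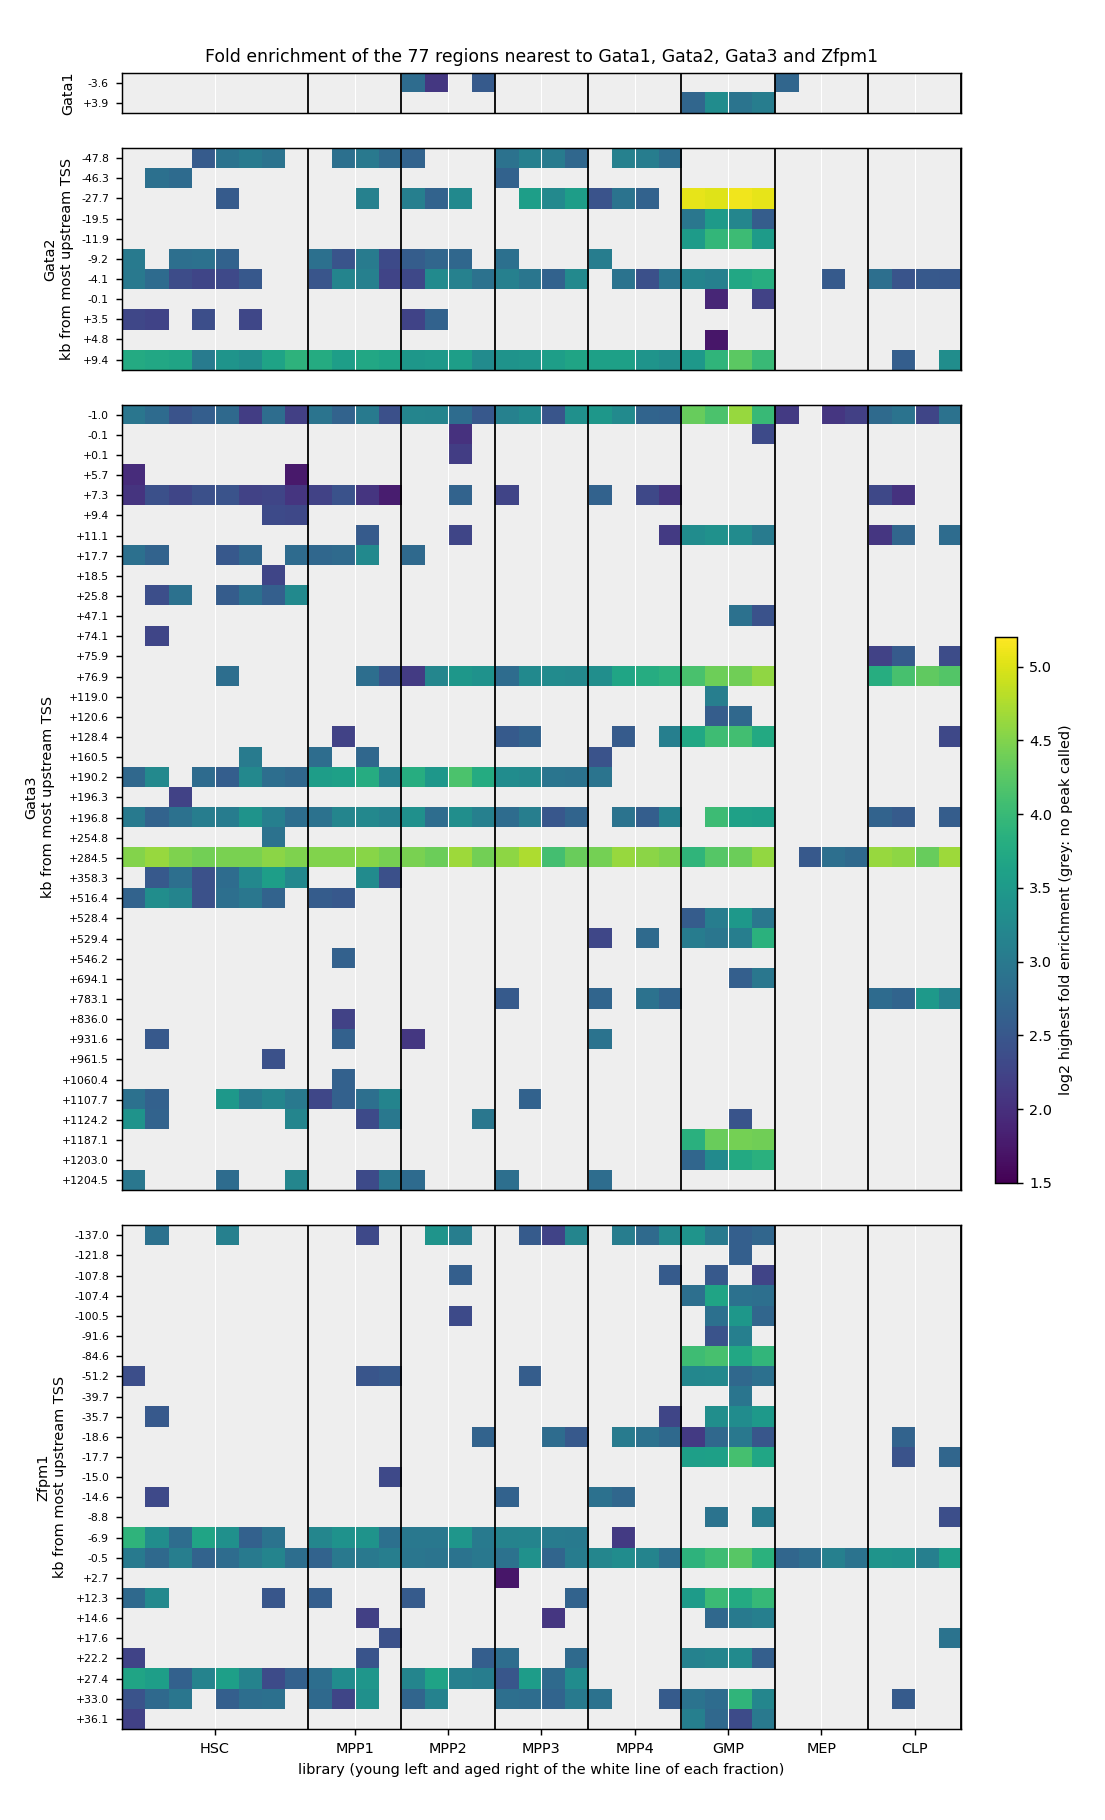
Highest fold enrichment (log2, colour) of each of the 77 regions (rows, in kb from the most upstream TSS of the gene) in each of the 36 libraries (columns), with grey where no peak was called. Black lines separate the fractions, and the white line within a fraction separates young (left) from aged libraries. MEP columns hold calls at 5 of the 77 regions (6.49%, against 13.3% of the catalogue), and GMP columns at 43 (55.8%, against 69.8%).

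Calls of the 77 regions were compared across the 8 fractions with an exact test of call by fraction. A region can reach p under 0.05 in this test only if it is called in enough, but not too many, of the 36 libraries, which left 50 of the 77. After Benjamini-Hochberg adjustment over 68255 testable catalogue regions, 39 of the 50 differed between fractions, while 78.3% of all testable regions did. The share among the 4 genes was therefore close to that of the catalogue. By gene, 2 of 2 tested Gata1 regions, 6 of 9 Gata2 regions, 17 of 21 Gata3 regions and 14 of 18 Zfpm1 regions passed. The number of peaks per library moves with these calls, and its part in them was examined with alternatives that change it. With equal numbers of peaks in every library, 7 regions could be tested and 5 passed (69.5% of 18126 in the catalogue), and without the GMP libraries 18 of 34 passed (61% of 48710). Without the MEP libraries, which had the fewest peaks, 34 of 49 passed (66.4% of 60744).

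The genes differed in where their regions were called. Of the 39 Gata3 regions, 20 (51.3%) were called in HSCs or MPPs but in no GMP, MEP or CLP library, against 21% of the catalogue, and 13 (33.3%) were called in HSCs or MPP1 and nowhere else, against 9.92%. Of these 13, 8 were called in 1 library only (20.5% of Gata3 regions, against 5.48% of the catalogue). Calls in both HSCs and MPP1 were found at 2 of them (5.13%, against 2.66%). With regions called in 1 library set aside, the counts were 11 of 39 (28.2%, against 12.7% of the catalogue) and 5 of 39 (12.8%, against 4.44%), and 25.6% of Gata3 regions were called in 1 library, against 18.4% of the catalogue. Of the 25 Zfpm1 regions, 19 (76%) were called in GMPs, against 69.8% of the catalogue. Of the 11 Gata2 regions, 4 (36.4%) were called in HSCs or MPPs but in no GMP, MEP or CLP library, against 21% of the catalogue. GMPs alone called 24.1% of the catalogue, and among the members 5 of 25 Zfpm1 regions (20%), 4 of 11 Gata2 regions (36.4%), 7 of 39 Gata3 regions (17.9%) and 1 of 2 Gata1 regions. These shares are descriptions, and neighbouring regions are not independent.

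**Figure D2:**
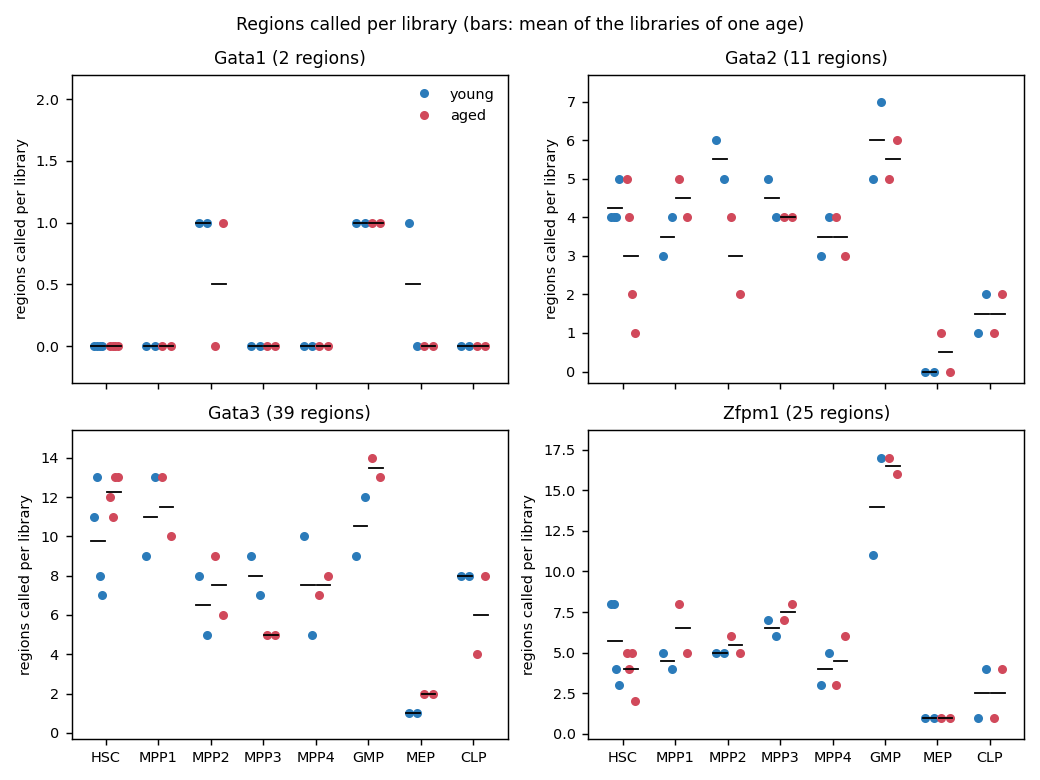
Number of regions called per library (points) for each gene, by fraction and age, with a bar at the mean of the libraries of one age. Zfpm1 regions number 11 to 17 in GMPs and 1 to 8 elsewhere, and Gata3 regions number 9 to 14 in GMPs and 7 to 13 in HSCs.

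Per library, GMPs called 15.3 ± 2.87 of the 25 Zfpm1 regions, HSCs 4.88 ± 2.17 (SD, n = 8), MPP3 7.0 ± 0.816, CLPs 2.5 ± 1.73 and MEPs 1.0 ± 0.0 (SD, n = 4 where not given). For Gata2, GMPs called 5.75 ± 0.957 of the 11 regions, MPP2 and MPP3 4.25 ± 1.71 and 4.25 ± 0.5, HSCs 3.63 ± 1.41, CLPs 1.5 ± 0.577 and MEPs 0.25 ± 0.5. For Gata3, GMPs called 12 ± 2.16 of the 39 regions, MPP1 11.3 ± 2.06, HSCs 11 ± 2.33, CLPs 7.0 ± 2.0 and MEPs 1.5 ± 0.577. HSCs and MPP1 thus lay within 1 SD of GMPs for Gata3 although GMPs had more peaks, and for Zfpm1 the GMP and HSC libraries did not overlap (11 to 17 against 2 to 8). The share of the whole catalogue called did not overlap between these libraries either (48.4% to 58.5% in GMPs and 25.4% to 35.6% in HSCs). With equal numbers of peaks per library, the means of the 4 genes together lay between 3.0 and 4.0 regions in every fraction, and that of MEPs was 3.0 before as well.

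Gata2 lies on chromosome 6 on the plus strand, with TSSs at 88193891 and 88198334. The region 9.4 kb downstream (chr6:88202982-88203558, intron) corresponds in position to the known element at 9.5 kb, with its median summit at 9.29 kb. It was called in all HSC, MPP and GMP libraries, in 2 of 4 CLP libraries and in no MEP library. In HSCs its fold enrichment ranged from 8.19 to 14.8 with a median of 12.6. The 16 MPP libraries ranged from 9.71 to 13.7, and their fraction means (10.9 to 12.8) lay within the HSC range. In GMPs it was 11.1 and 15.1 in young and 19.2 and 16 in aged libraries, and in CLPs 6.09 in young replicate 2 and 9.95 in aged replicate 2. HSCs, MPPs and GMPs overlapped, and both CLP values lay below the medians of those fractions. The exact test across fractions gave an adjusted p of 0.000369.

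The region at the known element 77 kb upstream (chr6:88116363-88117394, between genes, summit at 76.8 kb) is nearest to the TSS of Rpn1 and is not among the 77. It was called in none of the 8 HSC libraries and none of the 4 CLP libraries. It was called in 3 of 4 MPP1, 4 of 4 MPP2, 4 of 4 MPP3, 1 of 4 MPP4, 4 of 4 GMP and 4 of 4 MEP libraries (exact test, adjusted p = 3.54e-05). In GMPs its fold enrichment was 22.2 and 22.3 in young and 21.8 and 25.4 in aged libraries. In MEPs, which had the fewest peaks, it was 4.97 and 6.67 in young and 7.98 and 8.42 in aged libraries. MPP1 to MPP3 ranged from 4.95 to 10.6, so they overlapped with MEPs and lay below every GMP library. The elements 77 kb upstream and 9.4 kb downstream thus had unlike call patterns, the first without HSCs and with MEPs, and the second with HSCs and without MEPs.

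The region 4.1 kb upstream (chr6:88189590-88190024, between protein-coding genes and within the gene model Gm38708) lies at the known element at 3.9 kb. It was called in 30 libraries, among them 6 of 8 HSC, all GMP and CLP and 1 of 4 MEP libraries, and did not pass across fractions (exact test, adjusted p = 0.0644). Its fold enrichment was 9.04 and 8.63 in young and 13.2 and 14 in aged GMPs, and 4.77 to 9.68 in the other fractions, so only the aged GMP libraries lay above all others. Aged HSC replicates 3 and 4 were the HSC libraries without a call. No region lay within 0.5 kb of the known elements at 2.8 and 1.8 kb upstream.

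The region 27.7 kb upstream (chr6:88166008-88166404, between genes) had the highest fold enrichment of all 77. It was 33.4 and 32.5 in young GMPs and 34.7 and 33.3 in aged GMPs, a mean of 33.5 ± 0.9 (SD, n = 4). In MPP2, MPP3 and MPP4 it was called in 3 of 4 libraries each, with values from 5.43 to 11.9. In HSCs it was called in aged replicate 1 alone (5.91), in MPP1 in aged replicate 1 alone (8.77), and in no MEP or CLP library. The GMP libraries did not overlap with any other (exact test of calls, adjusted p = 0.00374).

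Regions 19.5 kb (chr6:88174272-88174487) and 11.9 kb (chr6:88181845-88182112) upstream were called in all 4 GMP libraries and in no other library, with fold enrichment of 6.01 to 11.5 and 11.5 to 16.4 (exact test, adjusted p = 0.000357 each). Regions 47.8 kb (chr6:88145938-88146207) and 9.2 kb (chr6:88184484-88184987) upstream showed the reverse pattern, called in 15 and 13 HSC and MPP libraries and in no GMP, MEP or CLP library (adjusted p = 0.0061 and 0.01 in the exact test). Their fold enrichment was 5.91 to 8.76 and 5.05 to 8.36. These 4 regions were thus called in GMPs or in the HSC and MPP fractions but not in both, unlike those 27.7 and 4.1 kb upstream, which were called in both.

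The TSSs of Gata2 were called rarely. The most-called region within 1 kb of a TSS lay 3.5 kb downstream of the first and 0.91 kb upstream of the second (chr6:88197234-88197621, intron). It was called in young HSC replicates 1, 2 and 4 (4.90, 4.73 and 5.26), in aged HSC replicate 2 (4.90) and in both young MPP2 libraries (4.73 and 6.36). The region at the first TSS, 0.1 kb upstream of it, was called in 2 GMP libraries, at 3.73 and 4.68. The remaining 2 regions were called in 1 and 3 libraries, 4.8 kb downstream in a GMP library and 46.3 kb upstream in young HSCs and MPP3.

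**Figure D3:**
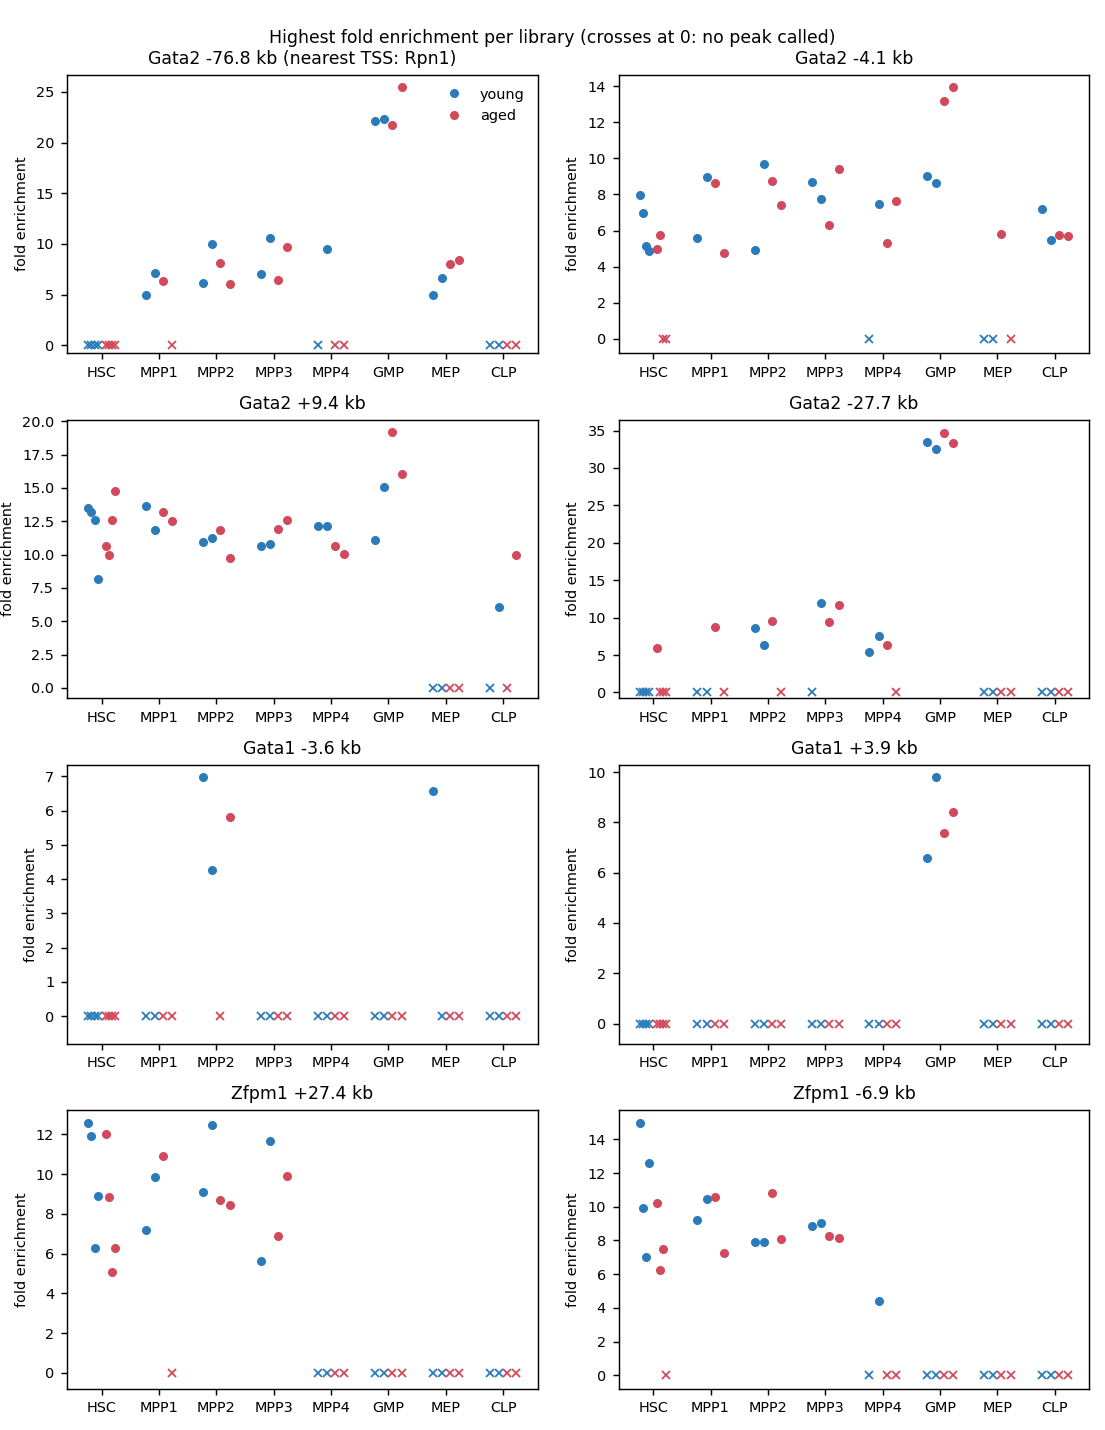
Highest fold enrichment per library (linear axis) at 8 regions of Gata2, Gata1 and Zfpm1, by fraction and age, with crosses at 0 where no peak was called. The region 76.8 kb upstream of Gata2 has values in all 4 MEP libraries and in no HSC library, and that 9.4 kb downstream has values in all 8 HSC libraries and in no MEP library.

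Gata1, the erythroid and megakaryocytic factor, lies on chromosome X on the minus strand with its TSS at 7967910. No region lay within 1 kb of it. The region 3.6 kb upstream (chrX:7971341-7971752, between genes) lies at the known element at 3.5 kb. Its fold enrichment was 6.99 and 4.27 in young MPP2, 5.82 in aged MPP2 replicate 2 and 6.56 in young MEP replicate 1, and it was called in no other library (exact test across fractions, adjusted p = 0.0163). MPP2 is known for its bias to megakaryocytes and erythrocytes, MPP3 to myeloid and MPP4 to lymphoid cells, so MPP2 was compared with the other 2. The region was called in 3 of 4 MPP2 and none of 8 MPP3 and MPP4 libraries (two-sided Fisher exact test, p = 0.0182), and over 16344 testable regions the adjusted p was 0.246. None of the 15 testable regions of the 4 genes passed in this comparison, and 0% of the catalogue did, where 1207 regions had an unadjusted p under 0.05 and the smallest adjusted p of the exact test was 0.131.

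The other Gata1 region, 3.9 kb downstream (chrX:7963850-7964108, intron), lies within 0.5 kb of the known element at 3.5 kb. It was called in all 4 GMP libraries, at 6.59 and 9.80 in young and 7.59 and 8.42 in aged ones, and in no other library (exact test, adjusted p = 0.000357). Near the element 25 kb upstream, a region with its summit at 25.4 kb (chrX:7993249-7993430), nearest to the TSS of Glod5, was called in young MEP replicate 1 alone at 5.64. Young MEP replicate 1 was thus the only MEP library with a call at either upstream element.

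Zfpm1 lies on chromosome 8 on the plus strand with its TSS at 122282141. All regions upstream of the TSS also lie in introns of Gm20388, a gene model that reads through this locus. The promoter region (chr8:122281163-122282200, centre 0.5 kb upstream) was the only one of the 77 called in all 36 libraries. Its fold enrichment was 14.9 and 16.6 in young and 18.8 and 14.6 in aged GMPs. In CLPs it was 8.55 to 11.8, in HSCs 6.42 to 9.01 with a median of 7.62, in the MPP fractions 6.37 to 10.4, and in MEPs 6.57 to 8.66. On this scale the GMP libraries lay above all others, and HSCs, MPPs and MEPs overlapped. Over the catalogue, fold enrichment was higher in GMPs than in CLPs and MEPs too, and HSCs and MPPs were not compared with GMPs in this way. Centred on the library medians, the promoter region did not differ between GMPs and CLPs or MEPs past the threshold, as given below.

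Zfpm1 had regions of the HSC and MPP fractions on both sides of its TSS. The intronic region 27.4 kb downstream (chr8:122309231-122309757) was called in all 8 HSC, 3 of 4 MPP1, all 4 MPP2 and all 4 MPP3 libraries and in no MPP4, GMP, MEP or CLP library, the smallest p of the 77 across fractions (exact test, adjusted p = 1.2e-05). In HSCs its fold enrichment ranged from 5.06 to 12.6 with a median of 8.89, and in MPP1 to MPP3 from 5.62 to 12.5. The region 6.9 kb upstream (chr8:122275038-122275408) was called in 7 of 8 HSC libraries, all MPP1, MPP2 and MPP3 libraries and young MPP4 replicate 2, and in no GMP, MEP or CLP library (exact test, adjusted p = 5.31e-05). Its values were 7.04 to 15 in young HSCs, 6.26 to 10.2 in the 3 aged HSC libraries with a call and 7.28 to 10.8 in MPP1 to MPP3.

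Another set of Zfpm1 regions was called in GMPs. Regions 84.6 kb (chr8:122197465-122197681) and 107.4 kb (chr8:122174675-122174867) upstream were called in all 4 GMP libraries and nowhere else, at 13.2 to 17.4 and 7.19 to 12.7 (exact test, adjusted p = 0.000357 each). The region 17.7 kb upstream (chr8:122264350-122264623) was called in all 4 GMP libraries at 12.1 to 17.2 and in 2 CLP libraries at 5.43 and 6.60 (adjusted p = 0.000369 in the exact test). The region 36.1 kb downstream (chr8:122318048-122318414) was called in all 4 GMP libraries and 1 HSC library, at 4.63 to 8.55 (exact test, adjusted p = 0.00134). The remaining 18 Zfpm1 regions were called in 1 to 22 libraries, and the most-called of them, 33 kb downstream and named for that number, in 6 of 8 HSC and all 4 MPP3 and GMP libraries but in no MEP library.

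Other Zfpm1 regions, also named after their values were seen, were called in all 4 GMP libraries without being theirs alone. The intronic region 12.3 kb downstream (chr8:122294236-122294561) had 11.6 and 16.2 in young and 13.5 and 15.8 in aged GMPs, and 5.61 to 9.42 in 6 HSC and MPP libraries, so that the groups did not overlap (exact test of calls, adjusted p = 0.0527). The region 22.2 kb downstream (chr8:122304161-122304497) was called in all 4 GMP libraries at 6.16 to 9.63 and in 5 HSC and MPP libraries at 4.72 to 7.05, which overlapped (exact test, adjusted p = 0.0163). The region 18.6 kb upstream (chr8:122263370-122263771) was called in all 4 GMP libraries at 4.37 to 7.92, in 3 of 4 MPP4 libraries at 6.79 to 8.18 and in no HSC library (adjusted p = 0.00253 in the exact test). It was also called in 2 MPP3 libraries, 1 MPP2 library and 1 CLP library, at 5.81 to 6.99.

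Gata3 lies on chromosome 2 on the minus strand with its TSS at 9878600, beside a long stretch without protein-coding TSSs, so that its regions reach 1204 kb downstream. At the TSS itself, regions 0.1 kb to either side were called in 1 and 2 libraries. The region 1.0 kb upstream (chr2:9879349-9879924), chosen here after its values were seen, was called in 35 libraries. Its fold enrichment was 20.2 and 17.7 in young and 24.7 and 15.9 in aged GMPs, 4.49 to 7.74 in HSCs with a median of 6.44, 5.27 to 11 in the MPP fractions, 4.83 to 7.54 in CLPs and 4.23 to 4.59 in the 3 MEP libraries with a call. GMPs lay above all other libraries, and HSCs, MPPs and CLPs overlapped.

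At some Gata3 regions calls were rare in HSCs and regular in later fractions. The region 76.9 kb downstream (chr2:9801418-9801913, between genes) was called in 1 of 8 HSC libraries (aged replicate 1, 7.12), 2 of 4 MPP1 libraries (both aged, 7.12 and 5.53) and all MPP2, MPP3, MPP4, GMP and CLP libraries, but in no MEP library (exact test, adjusted p = 8.66e-05). The 4 MPP2 libraries had 4.42, 9.16, 11 and 10.5, and the mean of MPP3 was 8.95 ± 1.3 and that of MPP4 12.8 ± 2.03 (SD, n = 4 each). GMPs had 17.6 and 21 in young and 21 and 24.1 in aged libraries, and CLPs had 13.9 and 17.4 in young and 19.6 and 18.5 in aged ones. MPP2 and MPP3 overlapped, as did GMPs and CLPs, and MPP4 (10.0 to 14.7) lay below all GMP libraries. The region 783.1 kb downstream (chr2:9095249-9095774) was called in all 4 CLP, 3 of 4 MPP4 and 1 of 4 MPP3 libraries and in no other, at 6.47 to 11.3 in CLPs and 5.84 to 7.41 in the MPPs (exact test, adjusted p = 0.000357).

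Other Gata3 regions were called at the start of the hierarchy. The region 190.2 kb downstream (chr2:9688144-9688605) was called in 7 of 8 HSC libraries, in all MPP1, MPP2 and MPP3 libraries and in 1 MPP4 library, and in no GMP, MEP or CLP library (exact test, adjusted p = 5.31e-05). Its values were 6.10 to 9.43 in HSCs, 8.69 to 13.9 in MPP1, 11 to 17.8 in MPP2 and 7.49 to 9.85 in MPP3, so every MPP2 library lay above every HSC and MPP3 library. Regions 358.3 kb (chr2:9520053-9520572) and 516.4 kb (chr2:9361947-9362358) downstream were called in 7 of 8 HSC libraries and 2 of 4 MPP1 libraries each and nowhere else (adjusted p = 0.000357 each in the exact test). In MPP1 the 2 calls were both aged at the first (9.78 and 5.28) and both young at the second (5.96 and 5.75). The region 25.8 kb downstream (chr2:9852573-9852984), chosen here after its values were seen, was called in HSCs only, in 2 of 4 young (5.24 and 7.37) and 4 of 4 aged libraries (5.96 to 9.57), with an adjusted p of 0.00256 in the exact test across fractions.

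The region 284.5 kb downstream (chr2:9593774-9594479), in the non-coding gene Gm13218 and also named after its values were seen, was called in 35 libraries. Its fraction means lay between 19.7 and 23.5 in all fractions but MEPs, where the 3 libraries with a call had 5.79, 6.78 and 7.24. The region 528.4 kb downstream (chr2:9350025-9350332) was called in all 4 GMP libraries alone, at 5.99 to 11.1 (exact test, adjusted p = 0.000357). Of the 7 Gata3 regions called in GMPs alone (17.9%, against 24.1% of the catalogue), 3 were called in all 4 GMP libraries, and the strongest, 1187.1 kb downstream and named after its values were seen, reached 14.4 to 21.5.

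Further Gata3 regions, named after their values were seen, fell into the same kinds. The intronic region 7.3 kb downstream (chr2:9871046-9871615) was called in all 8 HSC libraries at 4.16 to 5.43 and in all 4 MPP1 libraries, in 5 libraries of MPP2 to MPP4, in both young CLP libraries and in no GMP or MEP library (exact test, adjusted p = 0.000442). The region 1107.7 kb downstream (chr2:8770629-8771081) was called in 6 of 8 HSC libraries at 6.29 to 11.1, in all 4 MPP1 libraries at 4.88 to 8.97 and in 1 MPP3 library (adjusted p = 0.000369 in the exact test). The intronic region 11.1 kb downstream (chr2:9867228-9867827) was called in all 4 GMP libraries at 8.19 to 10.3, in 3 of 4 CLP libraries at 4.24 to 6.99 and in 3 aged MPP libraries (exact test, adjusted p = 0.00261). The region 75.9 kb downstream (chr2:9802588-9802870), next to that at 76.9 kb, was called in 3 of 4 CLP libraries alone at 4.69 to 5.83 (adjusted p = 0.0061 in the exact test). The first 2 were thus called mostly in HSCs and MPP1, the first with 7 of its 19 calls elsewhere, the third mostly in GMPs and CLPs, and the last in CLPs alone.

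**Figure D4:**
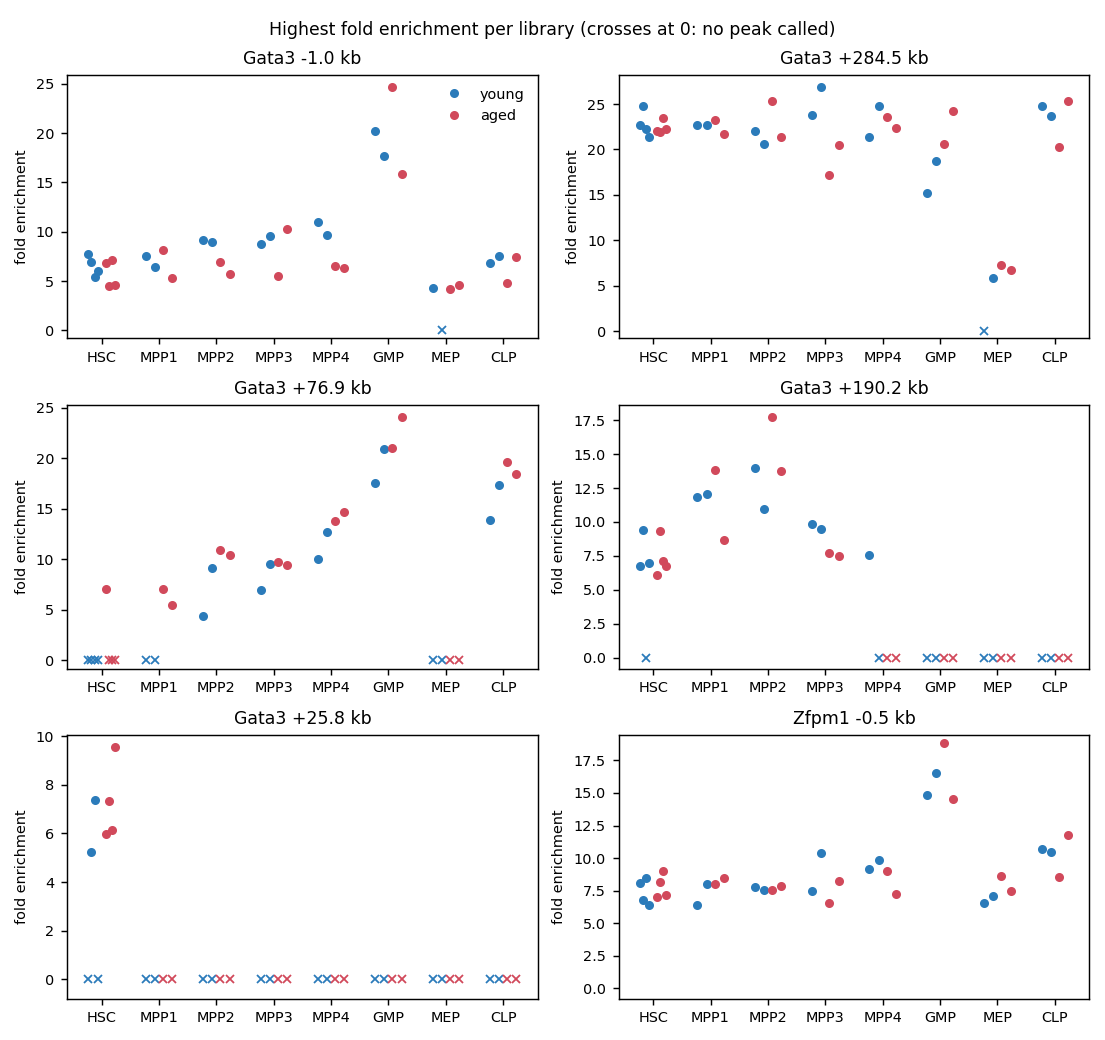
Highest fold enrichment per library (linear axis) at 5 Gata3 regions and the Zfpm1 promoter region, by fraction and age, with crosses at 0 where no peak was called. At 76.9 kb downstream of Gata3 the libraries lie at 4.42 to 11 in MPP2 and at 17.6 to 24.1 in GMPs, and at 284.5 kb downstream the 3 MEP libraries with a call lie at 5.79 to 7.24.

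GMPs and CLPs, the myeloid and lymphoid progenitors, were compared with 4 libraries each. A region is testable there only when it is called in exactly 4 of the 8 libraries, and Fisher's exact test then gives p = 0.0286 for 4 against none. Of 16 testable regions of the 4 genes, 1 was called in CLPs only (Gata3 783.1 kb downstream) and 15 in GMPs only, with an adjusted exact p of 0.0312 each. The catalogue had 6.71% of its testable regions in the first class and 85% in the second. MEPs against GMPs gave 22 of 22 testable regions called in GMPs only, against 97.8% of the catalogue. These counts do not set the 4 genes apart from the catalogue, and the number of peaks moves with both. With equal numbers of peaks, 4 of 5 regions passed between CLPs and GMPs (90.4% of the catalogue) and 1 of 2 between MEPs and GMPs (94.3%).

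Fold enrichment was compared at the regions called in all libraries of a contrast with limma, on the log2 scale and centred on the median of each library. Between CLPs and GMPs 5 regions could be compared, of which 2 were higher and 1 lower in CLPs, while 25.9% and 19.4% of 18378 catalogue regions were. The region 284.5 kb downstream of Gata3 was higher in CLPs by a log2 of 0.89 ± 0.134 (SE, adjusted p = 0.000264), and that 76.9 kb downstream by 0.34 ± 0.126 (adjusted p = 0.0424). The region 1.0 kb upstream of Gata3 was lower in CLPs by a log2 of -0.95 ± 0.151 (adjusted p = 0.00037). The Gata2 region 4.1 kb upstream differed by -0.25 ± 0.165 (adjusted p = 0.23) and the Zfpm1 promoter region by -0.03 ± 0.12 (adjusted p = 0.845). Without centring, the median over all catalogue regions was -0.55, and 0 regions were higher and 3 lower in CLPs, where 71.4% of the catalogue passed in either direction. The region 76.9 kb downstream then changed sign (-0.27), the region 284.5 kb downstream did not pass (0.27, adjusted p = 0.118) and the region 1.0 kb upstream was lower by -1.56. The Gata2 region 4.1 kb upstream (-0.86, adjusted p = 0.00054) and the Zfpm1 promoter region (-0.65, adjusted p = 0.00151) were then also lower in CLPs. The call at 76.9 kb was also lost when any 1 of 6 libraries was left out, and held only without young CLP replicate 1 or aged CLP replicate 2, with values from 0.27 to 0.41. Among the 3 called regions, the one 1.0 kb upstream was called in the same direction under both scalings.

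**Figure D5:**
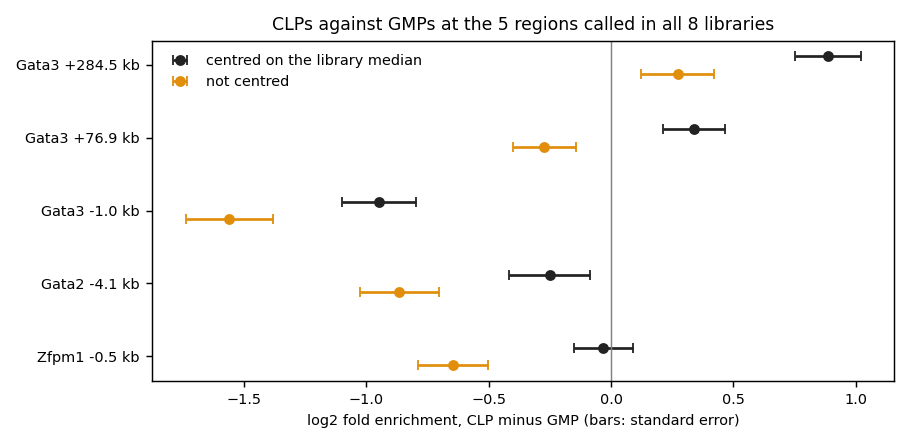
Difference in log2 fold enrichment between CLPs and GMPs (points, with standard errors) at the 5 regions called in all 8 libraries, centred on the library medians (black) or not (orange). The region 1.0 kb upstream of Gata3 is lower in CLPs under both (-0.95 and -1.56), and that 76.9 kb downstream lies on either side of 0 (0.34 and -0.27).

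Between MEPs and GMPs the Zfpm1 promoter region was the only one called in all 8 libraries. Its difference was 0.19 ± 0.119 on the centred log2 scale (SE, limma, adjusted p = 0.191), where 49.4% of 5730 catalogue regions passed. Without centring it was -1.12 (limma, adjusted p = 3.25e-07), where the catalogue median was -1.26 and 95.8% of catalogue regions passed. Between MPP2 and MPP3 with MPP4, none of 5 regions passed, against 0.929% of the catalogue. None had an unadjusted p under 0.05 either. Their differences ran from -0.30 ± 0.191 (Gata3 76.9 kb downstream, SE, adjusted p = 0.495) to 0.05 ± 0.107 (Gata3 284.5 kb downstream, adjusted p = 0.885).

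Age was compared last. Over all fractions, 13 of the 77 regions could reach p under 0.05 in an exact conditional test with fraction as stratum, and none had an unadjusted p under 0.05. In the catalogue 0% of 18638 testable regions passed after adjustment, 1169 had an unadjusted p under 0.05 and the smallest adjusted p was 0.0514. The smallest p of the 13 was that of Gata2 9.2 kb upstream, with calls in 9 young libraries against 4 aged ones (exact p = 0.0714, adjusted p = 0.966). In HSCs it was called in young replicates 1, 3 and 4 at 8.11, 7.19 and 7.33 and in aged replicate 1 at 6.31. The region 3.5 kb downstream of Gata2 had calls in 5 young libraries and 1 aged one (exact p = 0.1, adjusted p = 1).

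In HSCs alone 3 regions could be tested for calls, and none passed or had an unadjusted p under 0.05, while 0% of 3427 catalogue regions passed and 365 had an unadjusted p under 0.05 in Fisher's exact test. With 4 libraries per age that test cannot give p under 0.0286, for which the adjusted p was 0.268. No region could therefore pass, and the lack of calls past the threshold does not show that age left the regions unchanged. No region of the 77 had calls in every HSC library of 1 age with no call in the other age. In the catalogue, 0.211% of regions had this with calls in aged HSCs and 0.136% with calls in young HSCs. Fold enrichment in HSCs was compared with limma at 7 regions. None passed or had an unadjusted p under 0.05, and 0% of 17340 catalogue regions passed. The differences, aged minus young, ran from -0.31 ± 0.246 (Zfpm1 27.4 kb downstream, SE, adjusted p = 0.766) to 0.21 ± 0.171 (Gata3 196.8 kb downstream, adjusted p = 0.783), and that of Gata2 9.4 kb downstream was 0.04 ± 0.171 (adjusted p = 0.975). With HSC replicates 1 and 2 alone, or 3 and 4 alone, again none passed, of 14 and 8 regions, where 2 and 1 had an unadjusted p under 0.05. Over all fractions the Zfpm1 promoter region differed by 0.02 ± 0.0543 (SE, limma, adjusted p = 0.973), with 0% of 5335 catalogue regions past the threshold.

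In each of the other fractions, with 2 libraries per age, no exact p under 0.333 can be reached, and the calls are given as values. MPP1 had 5 regions called in both aged and no young library and 1 with the reverse (6.49% and 1.3% of the 77, against 1.6% and 0.737% of the catalogue). GMPs had 2 and 0 (1.98% and 0.927% of the catalogue), MPP2 0 and 2 (1.54% and 0.892%) and MPP3 1 and 1 (0.349% and 1.59%). MPP4 had 0 and 1 (1.1% and 1.17%), CLPs 0 and 1 (0.782% and 1.14%) and MEPs none of either kind (0.428% and 0.244%). Among the 5 in MPP1 were the Gata3 regions 76.9 and 358.3 kb downstream described above.

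Among 12 partners of GATA factors (Tal1, Lyl1, Lmo2, Ldb1, Runx1, Fli1, Erg, Spi1, Gfi1b, Nfe2, Zfpm2 and Tcf3), all had a region within 1 kb of a TSS. The most-called such region could be tested across fractions for 9, and 8 passed, where 70.3% of 6651 testable genes did. Of the 12, 10 were called in all 4 GMP libraries, 7 in all 4 CLP libraries, 5 in all 8 HSC libraries and 2 (Tal1 and Tcf3) in all 4 MEP libraries. Over the 13710 genes with such a region, these shares were 78.5%, 63.3%, 60.3% and 35%, in the same order of fractions. Of 16 target genes of erythroid, megakaryocytic and mast cells, 12 had such a region, 8 could be tested and 6 passed. Of these 12, 8 were called in all 4 MPP1 libraries and 7 in all 4 MPP2 libraries (70.5% and 68.7% of all genes), 3 in all GMP libraries, and 1 each in all MEP (Epor) and CLP libraries (Kit). Erg, Cpa3 and the other mast cell genes are named after their calls were seen. Of the partners, Erg, an ETS factor of stem cells, was called in all 8 HSC and all 4 MPP2 and MPP3 libraries and in no GMP, MEP or CLP library. Of the targets, Cpa3, a mast cell protease, was called in all 8 HSC and all 4 MPP1 and MPP2 libraries and in no GMP, MEP or CLP library. Among other mast cell targets, Hdc was called in 3 of 4 GMP libraries and 1 CLP library, Il1rl1 in 1 CLP library, and Ms4a2 had no such region.

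The genes whose most-called TSS region followed that of Zfpm1 most closely over the 36 libraries, on log2 of 1 plus fold enrichment, were Tmem87b (Pearson r = 0.892), Dennd4c (0.891), Arid5a (0.886), Fzr1 (0.885) and Mknk2 (0.878), of 13710 genes. These values share libraries and their peak numbers and are given as a description. For the Gata2 region 3.5 kb downstream the highest r were those of Nipal2 (0.731) and Clip4 (0.693). The corresponding Gata3 region was called in 2 libraries and Gata1 had none, so no likeness is given for them.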

How the data were processed

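ATAC-seq was performed by the authors on 36 libraries of 20000 sorted cells each, with 60 bp single reads. The submitters' processing notes and the study name Bowtie2 for alignment to mm10, SAMtools for drawing an equal number of reads per library, and MACS2 2.2.6 for peaks, called separately in each library at a q-value limit of 0.001. In the deposited peak files the authors give a fold enrichment (ratio), a -log10 p-value, a -log10 q-value, an integer score and the summit position. Reads per library were thus made equal by the authors, and that number is not given in the sources used here. The peak lists hold no read counts, so the study's count model was not run. The deposited score was not used in any result.

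Peaks were merged into regions, and each was assigned to the nearest TSS of the protein-coding transcripts of GENCODE release M21 (basic set, GRCm38). All regions lay within the chromosome lengths of the RefSeq genome used for sequences, and 7377 of 7377 RefSeq promoter sequences on the same chromosomes were read back identically from it. Peak starts are counted from 0 in the lists and from 1 here. Motifs were searched within 100 bp of the median summit.

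The labels gave each sample's group. Calls were compared with exact tests (Fisher, Fisher-Freeman-Halton, and an exact conditional test with fraction as stratum), two-sided, and fold enrichment with limma 3.58.1 in R 4.3.3, with age (or fraction) as covariate except within HSCs. P-values were adjusted after Benjamini and Hochberg, for the exact tests over all catalogue regions that could reach 0.05. For limma the adjustment was over all catalogue regions called in every library of the contrast. The threshold was 0.05. Other steps used Python 3.11.15, numpy 2.4.6 and pandas 2.3.3. The tests were tested on simulated data. Named regions were the most-called within 1 kb of a TSS, up to 6 per gene with the smallest p across fractions, and those within 0.5 kb of known elements. Other regions were named after their values were seen, to account for a gene's remaining regions or as the ends of a range. Alternatives were stricter peaks, 50% coverage, equal peak numbers, other scalings, and each library left out. The members and lists were chosen with earlier results of these data known. Leaving out the MEP or the GMP libraries was added after seeing the data. The calls of 1 listed marker gene are not reported here.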

Additional observations from a re-analysis of the deposited data

Results flagged for a closer look

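In 31 groups of 4 HSC libraries of one age, 2 were marked for 1 library apart from the others. The groups covered fold enrichment at regions called in all 4 and the number of regions called. For fold enrichment, chance alone marks about 1 in 20 such groups. That rate does not hold for numbers of regions called, where 1 library that differs from equal others is marked however small the difference. Young HSC replicate 4 had a fold enrichment of 8.19 at the Gata2 region 9.4 kb downstream, where the other young HSC libraries had 12.6 to 13.5. The same library called 5 Gata2 regions, where the other young HSC libraries called 4 each.

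At 2 of the 3 regions called in at least 35 libraries, both aged libraries lay above both young ones in one fraction and below them in another. At the Gata3 region 284.5 kb downstream the mean difference, aged minus young, was 5.43 in GMPs and -6.51 in MPP3. At the Zfpm1 promoter region it was 1.24 in MEPs, with MPP1 in the same direction, and -1.42 in MPP4. These differences between fractions were not tested. With 2 libraries per age, an exact test of such a separation within 1 fraction cannot give p under 0.333. How many catalogue regions show the same pattern was not counted.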

How the results depend on the processing

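Regions assigned to the 4 genes numbered 36 of 77 when TSSs of all annotated genes competed. Counts of regions past the threshold fell with stricter calls. With peaks of -log10 q of at least 10, 24 of 34 testable regions passed across fractions (81% in the catalogue). Between CLPs and GMPs 7 of 7 passed (94.1%), and between MEPs and GMPs 13 of 13 (99.6%). With 50% coverage 31 of 50 passed across fractions (70.4%), 11 of 11 between CLPs and GMPs (89.4%) and 13 of 14 between MEPs and GMPs (98.5%). With equal numbers of peaks 5 of 7, 4 of 5 and 1 of 2 passed in these 3 comparisons (69.5%, 90.4% and 94.3%). Without the GMP libraries 18 of 34 passed across fractions (61%). The cause was not tested. Fewer regions could be tested in each, except across fractions with 50% coverage, where 50 could be tested as in the main setting. When single libraries were left out, 66% to 78.9% of testable catalogue regions passed across fractions (78.3% with all libraries). Between CLPs and GMPs 66.7% to 74.2% passed (91.7%), and between MEPs and GMPs 80.3% to 93.4% (99.3%). The counts for the 4 genes then ranged from 37 to 44 across fractions, 16 to 19 between CLPs and GMPs and 22 to 26 between MEPs and GMPs. For fold enrichment they ranged from 2 to 4 between CLPs and GMPs, where 39.1% to 42.2% of the catalogue regions tested passed. Between MEPs and GMPs they ranged from 0 to 1, where 42.4% to 47.8% passed. The 1 was Gata3 1.0 kb upstream (-0.83, limma, adjusted p = 0.000533) without young MEP replicate 2, the only MEP library with no call there. In that setting 47.1% of the catalogue regions passed. Without centring, 1 region passed between MEPs and GMPs, the Zfpm1 promoter region at -1.12, as did 95.8% of the catalogue regions tested.

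Differences in log2 fold enrichment that changed sign were as follows. Without centring, Gata3 76.9 kb downstream between CLPs and GMPs was -0.27, and between MPP2 and MPP3 with MPP4 Gata3 284.5 kb downstream was -0.01 and Gata2 9.4 kb downstream -0.05. On log2 of -log10 q, Gata3 1.0 kb upstream was 0.14 in the latter comparison, and with age in HSCs Gata3 284.5 kb downstream was 0.05, Gata3 7.3 kb downstream 0.18 and Gata2 9.4 kb downstream -0.13. With HSC replicates 1 and 2 only, these 3 were 0.02, 0.24 and -0.24, and with replicates 3 and 4 only Gata3 196.8 kb downstream was -0.10. With single libraries left out, the range was -0.09 to 0.02 (Gata3 1.0 kb upstream) and -0.03 to 0.05 (Gata2 9.4 kb downstream) for MPP2, -0.09 to 0.05 for the Zfpm1 promoter region between CLPs and GMPs, and for age in HSCs -0.03 to 0.01 (Gata3 284.5 kb downstream), -0.12 to 0.07 (Gata3 7.3 kb downstream) and -0.09 to 0.12 (Gata2 9.4 kb downstream). Of these, Gata3 76.9 kb downstream passed only with centring and the Zfpm1 promoter region only without it (-0.65 between CLPs and GMPs and -1.12 between MEPs and GMPs), and those for MPP2 and for age in HSCs passed in neither setting.

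With a replicate block, 0 regions passed with age in HSCs in fold enrichment and 0 over fractions in calls or fold enrichment, as without it. The replicate numbers were not taken as pairs of ages. Deviations of same-numbered young and aged HSC libraries correlated at 0.0783, 0.0944, 0.179 and -0.0792. The highest correlations with another number were 0.0752, 0.0407, 0.185 and 0.0981, in the same order. Whether fractions of one age and replicate number share marrow is not given by the labels, and the comparisons of fractions were run without a replicate block. The lists hold no counts, so a region without a call is not shown to be closed.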
